A study of Mus musculus with 12 samples.

Results

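The dual-specificity MAP kinase phosphatases are enzymes, encoded by Dusp genes, that switch MAP kinases off. They were taken here as 8 genes, Dusp1, Dusp2, Dusp4, Dusp5, Dusp6, Dusp10, Dusp14 and Dusp16. Every non-control array probe that the scanner files name after 1 of these genes was used. There were 11 such probes among 41174, and all 11 passed the filter on dim signals that 30935 probes passed. They measured 7 of the 8 genes, out of 20836 genes tested. No probe carried the name Dusp5, a nuclear phosphatase of ERK, and it is not analysed here.

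MAP kinases (ERK, JNK and p38) carry growth factor and stress signals to the nucleus, and are active only while a threonine and a tyrosine next to their active site are phosphorylated. The phosphatases studied here remove both phosphates. Several of them are themselves transcribed in response to MAP kinase activity and so form a negative feedback loop. Dusp1 is also known as a gene that glucocorticoids raise in many cells, where it limits p38 and JNK signalling during inflammation.

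Mouse embryonic fibroblasts (MEFs) are cultured connective tissue cells, here taken at embryonic day 12.5 from C57Bl/6 embryos, and their RNA was hybridised to 12 Agilent arrays of 1 colour (Cy3). GR-C3 Dex cells were homozygous for the GR-C3 knockin and received 100 nM dexamethasone (Dex), a synthetic ligand of the glucocorticoid receptor (GR), for 6 hours. GR-C3 vehicle cells had the same genotype and received vehicle for 6 hours. WT Dex and WT vehicle cells were wild type and were treated in the same ways. Each group held 3 arrays. In the knockin, exon 2 of Nr3c1, the GR gene, was exchanged for a copy in which the start codon of the short GR-C3 isoform is the only one left of those that start the GR isoforms. The line came from 1 embryonic stem cell clone, its hygromycin cassette was removed with Flp-deleter mice, and both genotypes were bred from intercrosses of that line. Samples of 1 group are described as biological replicates, but no embryo or culture is named for any of them, so the p-values cover the spread among these arrays, which may be technical. The comparisons address how the knockin differs from WT under each treatment, what Dex changes in each genotype, and whether the Dex changes differ.

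Signals are given below as levels, in log2 units above or below the upper quartile (75th percentile) of each array, so that 1 unit is 2-fold and a negative level lies below that percentile. Levels of different probes cannot be set against each other. Between 70.7 and 78.5% of an array's probes stood well above background, and precision is limited by having 3 arrays per group. All 10 fibroblast markers were well above background on all 12 arrays. In bulk RNA, a change in the number of cells that express a gene and a change in RNA per cell cannot be told apart. Nr3c1 itself read 1.53, 1.44 and 1.39 on the GR-C3 Dex arrays, 1.86, 1.83 and 1.86 with GR-C3 vehicle, 1.26, 1.06 and 1.07 with WT Dex, and 1.20, 1.80 and 1.80 with WT vehicle. Its probe does not read which start codon is used.

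The array labelled WT vehicle replicate 1 went against its label. Fkbp5, a co-chaperone gene that activated GR induces, read 0.46, 0.94 and 0.96 with GR-C3 Dex, against -2.24, -2.38 and -2.24 with GR-C3 vehicle. With WT Dex it read 2.15, 1.89 and 2.06, against 1.51, -2.64 and -2.74 with WT vehicle, and 1.51 is the value of that array. Over all genes it correlated at 0.983 with the other WT vehicle arrays and at 0.987 to 0.989 with the WT Dex arrays. It was also alone on its slide and scan day. Results are therefore given with all 12 arrays and with 11, that is, without it.

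Among the members, Dusp1 rose and Dusp10 fell after Dex in WT cells with 11 arrays, and the 250 bases before their RefSeq starts (build GRCm38.p6) are shown for that reason. Capitals mark matches, on either strand, to the cAMP response element TGACGTCA, its core TGACG and the E-box CACGTG. The first lies at chr17:26508473-26508722 on the minus strand and the second at chr1:184034131-184034380 on the plus strand.
Dusp1: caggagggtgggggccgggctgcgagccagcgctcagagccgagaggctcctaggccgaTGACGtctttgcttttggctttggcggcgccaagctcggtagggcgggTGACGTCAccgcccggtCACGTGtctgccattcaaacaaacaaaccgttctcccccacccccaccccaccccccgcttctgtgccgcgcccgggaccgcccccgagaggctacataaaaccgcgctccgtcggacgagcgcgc
Dusp10: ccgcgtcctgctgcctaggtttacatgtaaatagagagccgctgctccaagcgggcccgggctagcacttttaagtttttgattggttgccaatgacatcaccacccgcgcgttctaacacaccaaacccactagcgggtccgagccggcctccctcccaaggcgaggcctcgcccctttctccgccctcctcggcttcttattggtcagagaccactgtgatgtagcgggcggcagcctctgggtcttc
The Dusp1 window held the full cAMP response element with its first base at -143, where -1 is the last base before the start. That element is a binding sequence of CREB and ATF proteins, and 1.55% of 32851 promoter windows of the same length held it. The core began at -191, and also at -143 and -140 within the full element, and 17.8% of windows held that core. An E-box stood at -126, and 6.02% of windows held that sequence. The Dusp10 window held none of the 3 sequences. Windows were available for 7 members, all but Dusp4. None of these 7 held the GR hexamer AGAACA, which 16.1% of windows hold, or the full GR element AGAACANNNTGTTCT, which 0.00913% hold. These are matches of letters, not binding sites.

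In the knockin cells most of the family stood at higher levels than in WT cells, and Dusp1 stood at a lower level. Under Dex, 5 of 7 members were called at an adjusted p under 0.05 with all 12 arrays (limma, Benjamini-Hochberg over all genes). Dusp2, Dusp6, Dusp10 and Dusp14 were higher in GR-C3 cells and Dusp1 was lower. Over all genes 29.6% were called in this comparison, 17.5% higher and 12.1% lower. Under vehicle 6 of 7 members were called, Dusp2, Dusp6, Dusp10, Dusp14 and Dusp16 higher and Dusp1 lower, against 24.8% of all genes, 14.6% higher and 10.2% lower. The median difference of the 7 members was 0.56 under Dex and 0.74 under vehicle, against 0.13 and 0.11 over all genes. Without the array labelled WT vehicle replicate 1, 6 members were called under Dex, 5 higher and 1 lower (40.7% of all genes, 24.6% higher and 16.1% lower). Under vehicle 6 were called, again 5 higher and 1 lower (27.3% of all genes, 16.2% higher and 11.1% lower). Dusp4 joined the calls in both comparisons and Dusp16 left those under vehicle. Groups that did not overlap were seen for 6 of 7 members under Dex (50.3% of all genes with 12 and with 11 arrays). Under vehicle they were seen for 7 of 7 (43.3% of all genes with 12 arrays and 64.4% with 11).

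**Figure D1:**
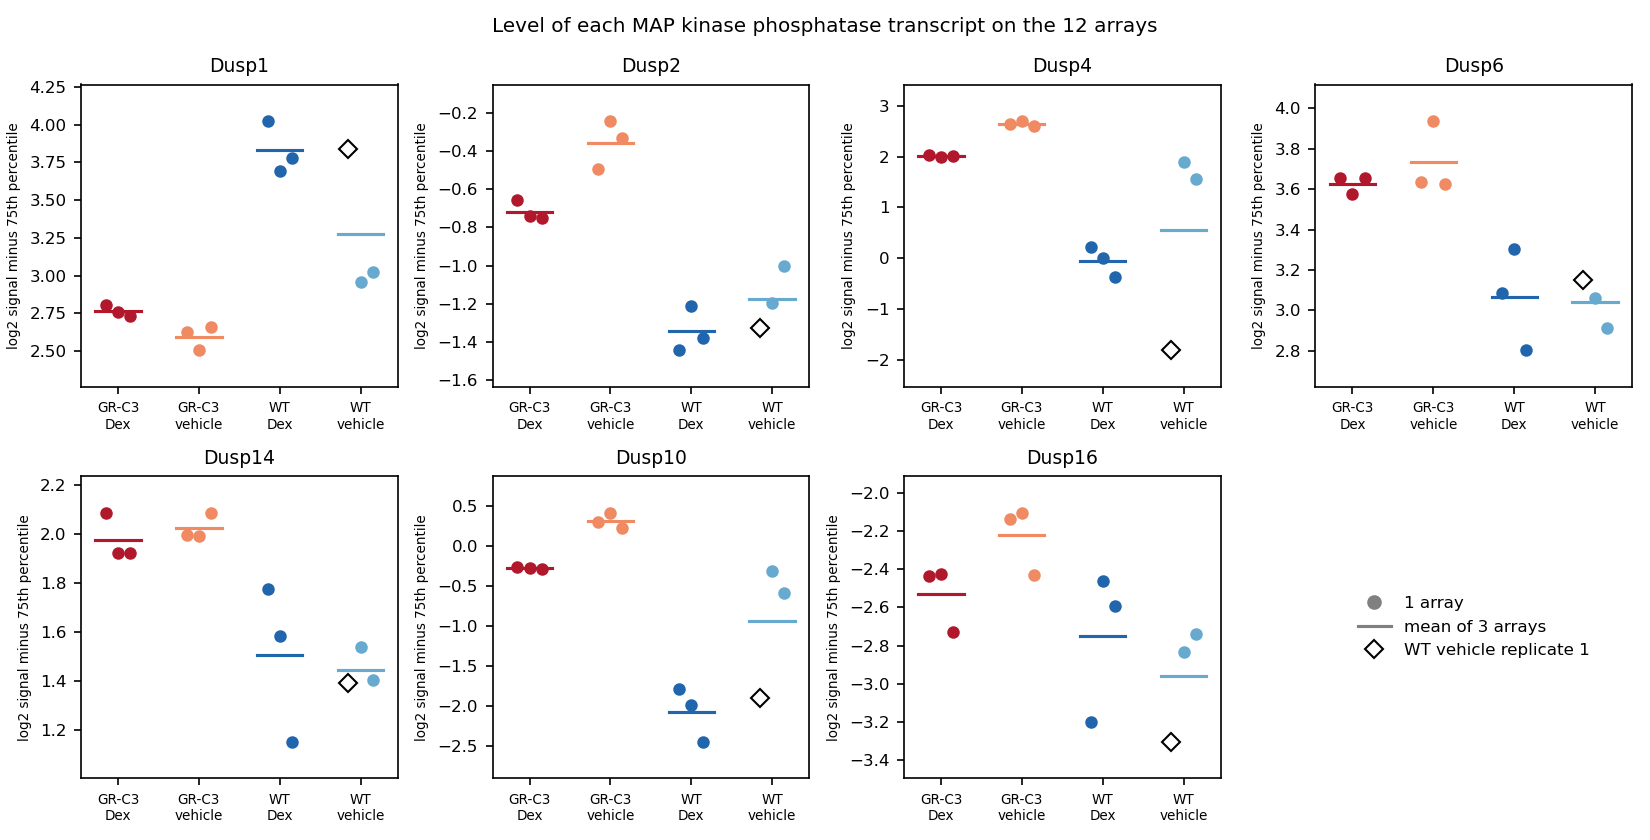
Level of each of the 7 measured members on every array (y axis, log2 signal minus the 75th percentile of the array, its own range per panel), with the groups GR-C3 Dex, GR-C3 vehicle, WT Dex and WT vehicle from left to right. Points are arrays, lines are means of 3 arrays, and the open diamond is the array labelled WT vehicle replicate 1, which for Dusp4 read -1.80 beside 1.89 and 1.56 on the other WT vehicle arrays.

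Dusp1, a nuclear phosphatase of p38, JNK and ERK, was measured by 1 probe at chr17:24690398-24690455 (mm7, the build of the files). It read 2.81, 2.76 and 2.73 on the GR-C3 Dex arrays, against 4.02, 3.69 and 3.78 on the WT Dex arrays. Under vehicle it read 2.62, 2.51 and 2.66 on the GR-C3 arrays, against 3.84, 2.96 and 3.02 on the WT arrays. All 6 GR-C3 arrays lay below all 6 WT arrays. The difference was -1.07 ± 0.20 under Dex (SE, adjusted p = 0.00282), a level 2.09-fold lower in GR-C3 cells. Under vehicle it was -0.68 ± 0.20 (adjusted p = 0.0305) with 12 arrays and -0.40 ± 0.11 (adjusted p = 0.023) with 11. From low to high the order was GR-C3 vehicle, GR-C3 Dex, WT vehicle and WT Dex, and the last pair overlapped through the array labelled WT vehicle replicate 1.

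Dusp2, a nuclear phosphatase best known from lymphoid cells, was read at chr2:127079047-127079106. Its levels were -0.66, -0.74 and -0.75 with GR-C3 Dex, against -1.44, -1.21 and -1.38 with WT Dex. Under vehicle they were -0.49, -0.24 and -0.33 in GR-C3 cells, against -1.33, -1.19 and -1.0 in WT cells. Every GR-C3 array was higher than every WT array, and the WT Dex and WT vehicle arrays overlapped with 12 arrays but not with 11. The difference was 0.63 ± 0.12 under Dex (1.55-fold, adjusted p = 0.00251) and 0.82 ± 0.12 under vehicle (1.76-fold, adjusted p = 0.000541). With 11 arrays it was 0.74 ± 0.11 under vehicle (adjusted p = 0.00113).

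Dusp4 encodes a nuclear phosphatase closely related to Dusp1 that is induced by ERK. The probe with the higher signal lies at chr8:33583106-33583165. It read 2.03, 1.99 and 2.01 with GR-C3 Dex, against 0.23, 0.01 and -0.38 with WT Dex. Under vehicle it read 2.64, 2.70 and 2.60 in GR-C3 cells, against -1.80, 1.89 and 1.56 in WT cells. The GR-C3 arrays lay close together and above all WT arrays, while the WT vehicle arrays spread from the lowest level of all, on replicate 1, to the highest in WT cells. Under Dex the difference was 2.06 ± 0.73 (adjusted p = 0.0543) with 12 arrays, and 2.06 ± 0.15 (4.16-fold, adjusted p = 5.47e-06) with 11. Under vehicle it was 2.10 ± 0.73 (adjusted p = 0.0583) with 12 arrays, and 0.92 ± 0.16 (1.89-fold, adjusted p = 0.00268) with 11. With 11 arrays the order from low to high was WT Dex, WT vehicle, GR-C3 Dex and GR-C3 vehicle, without overlap.

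Dusp6 encodes a cytoplasmic phosphatase that is selective for ERK. It was read at chr10:98828759-98828818. Its levels were 3.66, 3.57 and 3.65 with GR-C3 Dex, against 3.09, 3.30 and 2.80 with WT Dex. Under vehicle they were 3.64, 3.94 and 3.62 in GR-C3 cells, against 3.15, 3.06 and 2.91 in WT cells. The genotypes did not overlap, and within each genotype the treatments did. GR-C3 cells were higher by 0.56 ± 0.14 under Dex (1.48-fold, adjusted p = 0.0122) and by 0.69 ± 0.14 under vehicle (1.62-fold, adjusted p = 0.00481).

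Dusp10, whose product prefers JNK and p38, was read at chr1:183600757-183600816. It stood at -0.27, -0.28 and -0.28 with GR-C3 Dex, against -1.79, -1.99 and -2.45 with WT Dex. Under vehicle it stood at 0.30, 0.42 and 0.22 in GR-C3 cells, against -1.91, -0.31 and -0.58 in WT cells. All GR-C3 arrays were above all WT arrays, and the array labelled WT vehicle replicate 1 lay within the WT Dex range. The difference was 1.80 ± 0.33 under Dex (3.49-fold, adjusted p = 0.00256). Under vehicle it was 1.25 ± 0.33 (adjusted p = 0.0196) with 12 arrays and 0.76 ± 0.17 (1.70-fold, adjusted p = 0.00944) with 11.

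Dusp16 encodes the other phosphatase with a preference for JNK. The probe used, well above background on all 12 arrays, lies at chr6:134729960-134730000. It read -2.43, -2.42 and -2.73 with GR-C3 Dex, against -3.20, -2.46 and -2.59 with WT Dex, and these groups overlapped. Under vehicle it read -2.13, -2.10 and -2.43 in GR-C3 cells, against -3.30, -2.83 and -2.74 in WT cells, without overlap. Under Dex the difference was 0.22 ± 0.21 (adjusted p = 0.436), with a 95% interval of -0.24 to 0.69. Under vehicle it was 0.74 ± 0.21 (adjusted p = 0.0262) with 12 arrays and 0.56 ± 0.21 (adjusted p = 0.07) with 11. Leaving out GR-C3 vehicle replicate 1 or replicate 2 also ended that call, with adjusted p-values of 0.0776 and 0.0906.

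Dusp14, a small family member that lacks the docking domain of the others, was read at chr11:84118020-84118079. Its levels were 2.09, 1.92 and 1.92 with GR-C3 Dex, against 1.77, 1.58 and 1.15 with WT Dex. Under vehicle they were 2.00, 1.99 and 2.09 in GR-C3 cells, against 1.39, 1.54 and 1.41 in WT cells. No GR-C3 array overlapped the WT arrays. GR-C3 cells were higher by 0.47 ± 0.14 under Dex (1.39-fold, adjusted p = 0.031) and by 0.58 ± 0.14 under vehicle (1.49-fold, adjusted p = 0.0139). The call under Dex was lost without WT Dex replicate 3 (0.30, adjusted p = 0.0857) and without any 1 of the GR-C3 Dex arrays (adjusted p = 0.0633 to 0.0973).

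**Figure D2:**
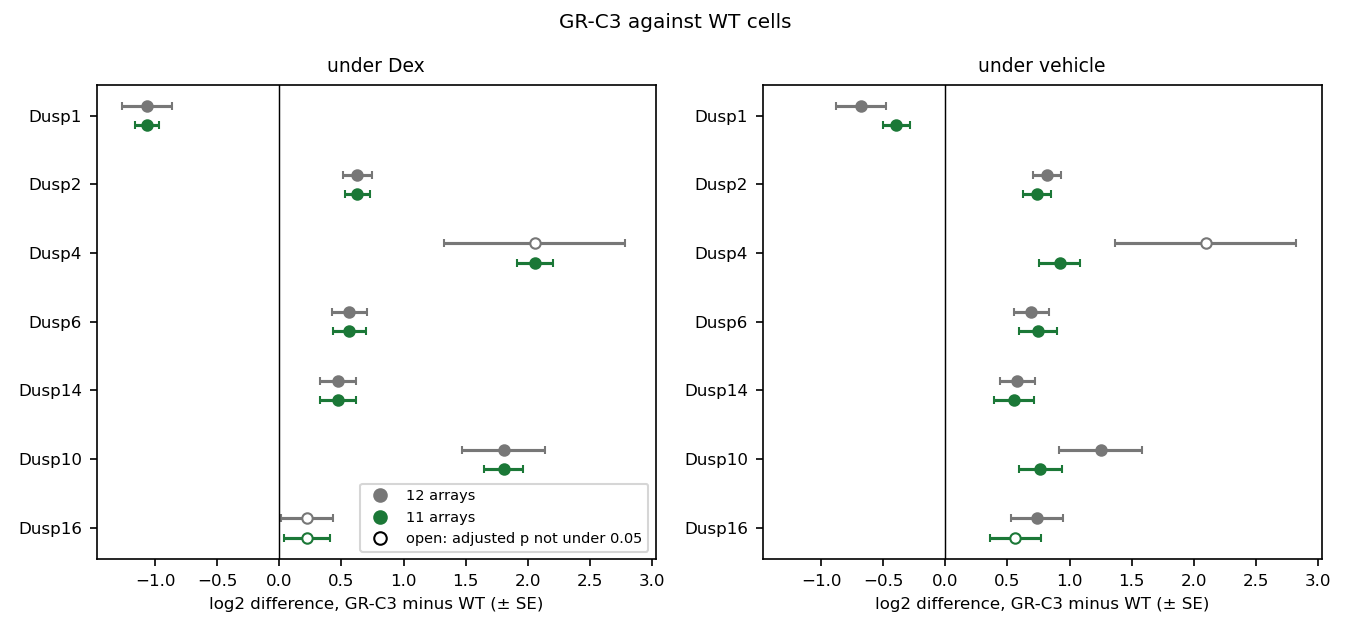
Difference between GR-C3 and WT cells under Dex (left) and under vehicle (right) for each member, in log2 units with the standard error, from all 12 arrays (grey) and from 11, with WT vehicle replicate 1 set aside (green). Filled points passed an adjusted p of 0.05: Dusp1 is the 1 member left of 0, and Dusp4 is filled with 11 arrays only.

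Slides and genotypes were partly confounded. No slide held arrays of both genotypes under the same treatment, and the fit links them only through arrays of different treatments. With slide as a block, 3 members were called under Dex, against 15.6% of all genes. Dusp1 differed there by -1.06 ± 0.13 (adjusted p = 0.00299), Dusp4 by 2.26 ± 0.23 (adjusted p = 0.00146) and Dusp10 by 2.09 ± 0.24 (adjusted p = 0.00234). Dusp2, Dusp6 and Dusp14 lost their calls under Dex, at 0.54, 0.74 and 0.52 with adjusted p-values of 0.0937, 0.107 and 0.168. Under vehicle 2 members were called with this block, against 7.82% of all genes: Dusp4 at 1.35 ± 0.24 (adjusted p = 0.0169) and Dusp10 at 1.23 ± 0.25 (adjusted p = 0.0284). The Dusp1 difference under vehicle was then -0.14 ± 0.14 (adjusted p = 0.623) and that of Dusp16 was -0.0049 ± 0.19 (adjusted p = 0.994). Dusp2, Dusp6 and Dusp14 stood at 0.58, 0.83 and 0.93, with adjusted p-values of 0.122, 0.121 and 0.054. With normexp background correction on the local backgrounds as deposited, 0 of 7 members were called by limma in either genotype comparison, where 2 under Dex and 4 under vehicle had an unadjusted p under 0.05. That setting called only 455 of 20836 genes under Dex and 377 under vehicle.

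Markers of several other cell types also lay apart in the genotypes. The summed linear level of the keratins Krt8, Krt18 and Krt19, relative to the 75th percentile, was 3.86 to 4.0 with GR-C3 Dex and 4.99 to 5.37 with GR-C3 vehicle, against 0.691 to 0.868 with WT Dex and 0.926 to 0.976 with WT vehicle. These were the 3 of 5 epithelial markers that passed the filter. Cdh1, the epithelial cadherin, was well above background on 0 arrays and Epcam on 2. The 3 of 4 skeletal muscle markers that passed (Myod1, Myog and Des) summed to 2.52 to 3.14 and 2.74 to 2.97 in GR-C3 cells, against 0.457 to 0.584 and 0.442 to 0.469 in WT cells. Such sums weigh the brightest probes most. Over the 12 arrays the level of Des ranged from -2.37 to 1.44. Myod1 ranged from -2.70 to -1.66 and Myog from -4.21 to -3.23, too low to make that gap, which rests on Des. The 2 of 4 endothelial markers that passed (Tek and Kdr) summed to 0.465 to 0.466 and 0.319 to 0.346, against 0.147 to 0.164 and 0.177 to 0.241, while Cdh5 was above background on 0 arrays and Pecam1 on 1. The 4 neural markers summed to 6.12 to 6.56 with GR-C3 Dex and 4.33 to 4.74 with GR-C3 vehicle, against 4.14 to 4.76 and 3.17 to 4.22 in WT cells. Most of the neural sum was Tubb3, whose level ranged from 1.24 to 2.29. The 5 leukocyte markers overlapped in all 4 groups. Their part in the genotype differences was not tested.

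Dex raised Dusp1 and lowered Dusp4 and Dusp10 in WT cells, once the array labelled WT vehicle replicate 1 was left out. With all 12 arrays 0 of 7 members were called by limma in WT cells, where 2 had an unadjusted p under 0.05 (16.7% of all genes) and 0.12% of all genes were called. With 11 arrays 3 of 7 members were called, 1 higher and 2 lower, against 12.2% of all genes, 5.38% higher and 6.85% lower. In GR-C3 cells the count was 0 of 7 with 12 arrays, where 1 had an unadjusted p under 0.05 (11.8% of all genes) and 0.101% of all genes were called. It was 1 of 7 with 11 arrays, Dusp4, which was lower, against 3.47% of all genes, 1.37% lower. Members whose Dex and vehicle arrays did not overlap numbered 4 in GR-C3 cells (28.9% of all genes). In WT cells they numbered 0 with 12 arrays (14.9% of all genes) and 4 with 11 (42.8%).

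Dusp1 was higher by 0.84 ± 0.11 after Dex in WT cells with 11 arrays, a 1.79-fold rise (adjusted p = 0.000875), and all 3 Dex arrays exceeded both remaining vehicle arrays. With 12 arrays the difference was 0.56 ± 0.20 (adjusted p = 0.213). In GR-C3 cells it was 0.17 ± 0.10 with 11 arrays (adjusted p = 0.377), with a 95% interval of -0.05 to 0.39. All 3 GR-C3 Dex arrays, at 2.73 to 2.81, still lay above the GR-C3 vehicle arrays, at 2.51 to 2.66.

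Dusp10 fell by 1.63 on the log2 scale after Dex in WT cells with 11 arrays (SE 0.17, 3.1-fold lower, adjusted p = 0.000221). With 12 arrays the difference was -1.14 ± 0.33 (adjusted p = 0.161). Its change in GR-C3 cells was -0.59 ± 0.15 with 11 arrays (adjusted p = 0.0751), and all 3 Dex arrays lay below all 3 vehicle arrays there.

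Dusp4 was, like Dusp10, lower after Dex. In WT cells it fell by 1.77 after Dex with 11 arrays (SE 0.16, 3.41-fold lower, adjusted p = 9.8e-05), while the 12 arrays gave -0.59 ± 0.73 (adjusted p = 0.719). In GR-C3 cells its change was -0.63 ± 0.15 with 11 arrays (1.55-fold lower, adjusted p = 0.0458) and -0.63 ± 0.73 with 12 (adjusted p = 0.759). When 1 more array was left out, the WT calls of Dusp1, Dusp4 and Dusp10 stood in all 11 cases and the GR-C3 call of Dusp4 in 2 of 11.

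**Figure D3:**
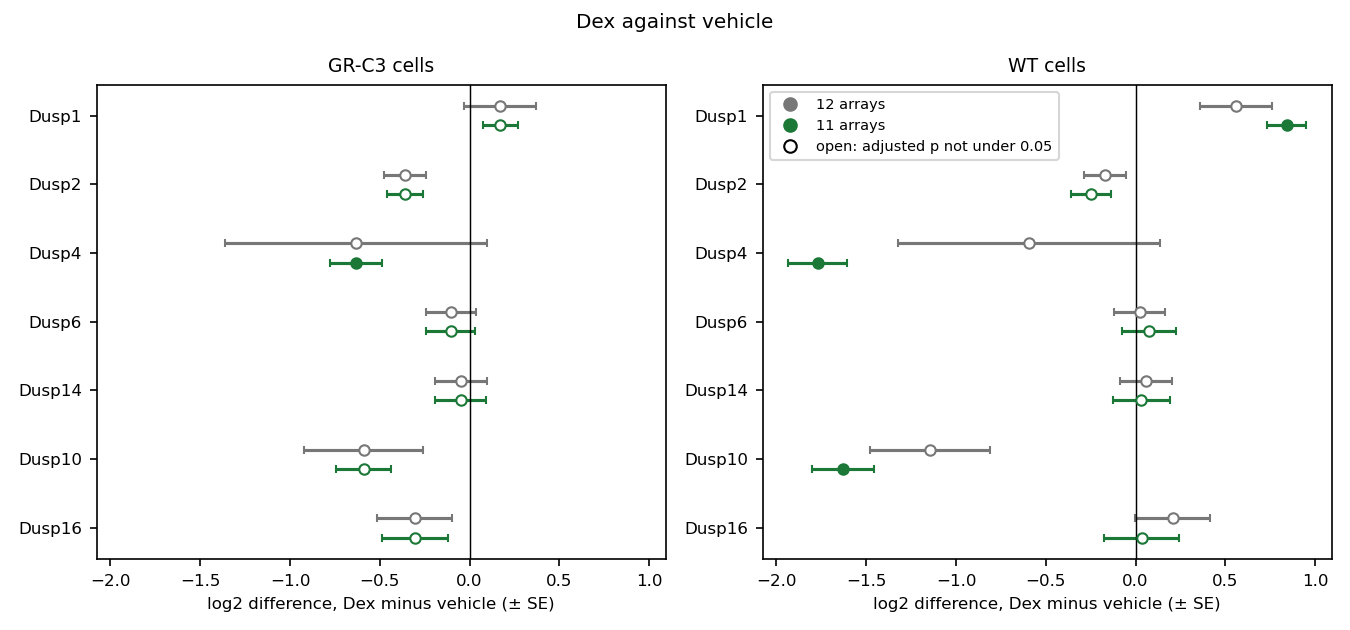
Difference between Dex and vehicle in GR-C3 cells (left) and WT cells (right) for each member, in log2 units with the standard error, from 12 arrays (grey) and 11 arrays (green). Filled points passed an adjusted p of 0.05: in WT cells Dusp1 lies at 0.84, Dusp4 at -1.77 and Dusp10 at -1.63 with 11 arrays, and in GR-C3 cells Dusp4 lies at -0.63.

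The other 4 members were not called after Dex in either genotype. Dusp2 differed by -0.36 ± 0.10 in GR-C3 cells with 11 arrays (adjusted p = 0.0926) and by -0.25 ± 0.11 in WT cells (adjusted p = 0.19). Its Dex and vehicle arrays did not overlap in either genotype with 11 arrays. For Dusp6, the phosphatase of ERK, the differences were -0.11 ± 0.13 in GR-C3 cells and 0.08 ± 0.15 in WT cells, with 95% intervals of -0.41 to 0.20 and -0.26 to 0.41. Dusp14 gave -0.05 ± 0.14 and 0.03 ± 0.16, and Dusp16 gave -0.31 ± 0.19 and 0.03 ± 0.21. These intervals limit the changes but do not show that there were none.

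Slides 2 and 4 each held both treatments of 1 genotype, which gave the fit with slide as a block its Dex differences. Slide 4 held 3 GR-C3 Dex arrays and 1 GR-C3 vehicle array, and slide 2 held 1 WT Dex array and 2 WT vehicle arrays. With that block 3 members were called in WT cells, against 4.89% of all genes: Dusp1 at 1.03 ± 0.11 (adjusted p = 0.00216), Dusp4 at -1.50 ± 0.19 (adjusted p = 0.00465) and Dusp10 at -1.35 ± 0.20 (adjusted p = 0.00925). In GR-C3 cells Dusp4 stood at -0.59 ± 0.18 with the block (adjusted p = 0.187), and 0 members were called by limma, against 1.52% of all genes, where 3 members had an unadjusted p under 0.05. The WT value of this fit rests on 1 Dex array and the GR-C3 value on 1 vehicle array, each lone array being assumed to vary like the other groups. The array labelled WT vehicle replicate 1 adds nothing to this fit, since it was alone on its slide.

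Whether the Dex changes differed between genotypes was tested by the interaction, the Dex change in GR-C3 cells minus that in WT cells. With 12 arrays 0 of 7 members and 0 of 20836 genes were called by limma, where 0 members and 1282 genes (6.15%) had an unadjusted p under 0.05. With 11 arrays 1 member was called, Dusp4, against 1.14% of all genes, 0.322% higher. Its interaction was 1.14 ± 0.22 (adjusted p = 0.0418), a ratio of 2.20 between the fold changes of GR-C3 and WT cells. That call stood in 2 of 11 cases when 1 more array was left out. For Dusp10 the interaction was 1.04 ± 0.23 (adjusted p = 0.0711) and for Dusp1 it was -0.67 ± 0.15 (adjusted p = 0.0664). All 3 had the smaller estimated change in GR-C3 cells, and in this fit with 11 arrays the test of the difference passed for Dusp4 alone. With all 12 arrays weighted by quality, 2 members were called instead, Dusp1 and Dusp10 and not Dusp4, against 1022 of 20836 genes. With slide as a block 0 members were called, against 0.173% of all genes, where 3 had an unadjusted p under 0.05, and Dusp4 stood at 0.91 (adjusted p = 0.321).

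Several probes read Dusp4, Dusp14 and Dusp16, and they were fitted each on its own over the 30935 probes. The second Dusp4 probe, at chr8:33580345-33580404, stood at -1.10, -1.01 and -1.05 with GR-C3 Dex, against -2.92, -2.71 and -2.97 with WT Dex. On the vehicle arrays it stood at -0.47, -0.48 and -0.75 in GR-C3 cells, against -2.62, -1.45 and -1.95 in WT cells. It matches the Dusp4 RefSeq transcript, whereas the first probe was designed on a cDNA clone that the files name Dusp4. Both probes gave the same order of groups with 11 arrays. On the second probe the genotype difference was 1.81 ± 0.23 under Dex (adjusted p = 0.000279) and 1.44 ± 0.23 under vehicle (adjusted p = 0.00139), called with all 12 arrays. The Dex change in WT cells was -1.17 ± 0.16 with 11 arrays (adjusted p = 0.00113). In GR-C3 cells that probe changed by -0.49 ± 0.14 (adjusted p = 0.111), and its interaction was 0.69 ± 0.21 (adjusted p = 0.179).

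The second Dusp14 probe, at chr11:84118697-84118756, differed from the first on genotype under Dex and on the Dex change in WT cells. It read -0.39, 0.10 and 0.13 with GR-C3 Dex, against 0.03, 0.28 and 0.10 with WT Dex. Under vehicle it read 0.13, 0.01 and -0.11 in GR-C3 cells, against -0.25, -0.33 and -0.45 in WT cells, without overlap. Its genotype differences were -0.19 ± 0.15 under Dex (adjusted p = 0.351) and 0.35 ± 0.15 under vehicle (adjusted p = 0.112), the latter in the direction of the first probe. Its Dex change in WT cells was 0.53 ± 0.16 with 11 arrays (adjusted p = 0.0649), where the first probe had 0.03 ± 0.16. Of the 3 Dusp16 probes, the one for a second transcript variant, at chr6:134751853-134751912, was well above background on 10 of 12 arrays. On it Dex gave -1.03 ± 0.20 in WT cells with 11 arrays (adjusted p = 0.00995) and -0.92 ± 0.19 with 12 (adjusted p = 0.0924). There the used probe had 0.03 ± 0.21, and the third probe, at chr6:134732307-134732366, had 0.78 ± 0.39 (adjusted p = 0.231). The Dusp16 probes therefore disagreed on the sign of the Dex change in WT cells.

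**Figure D4:**
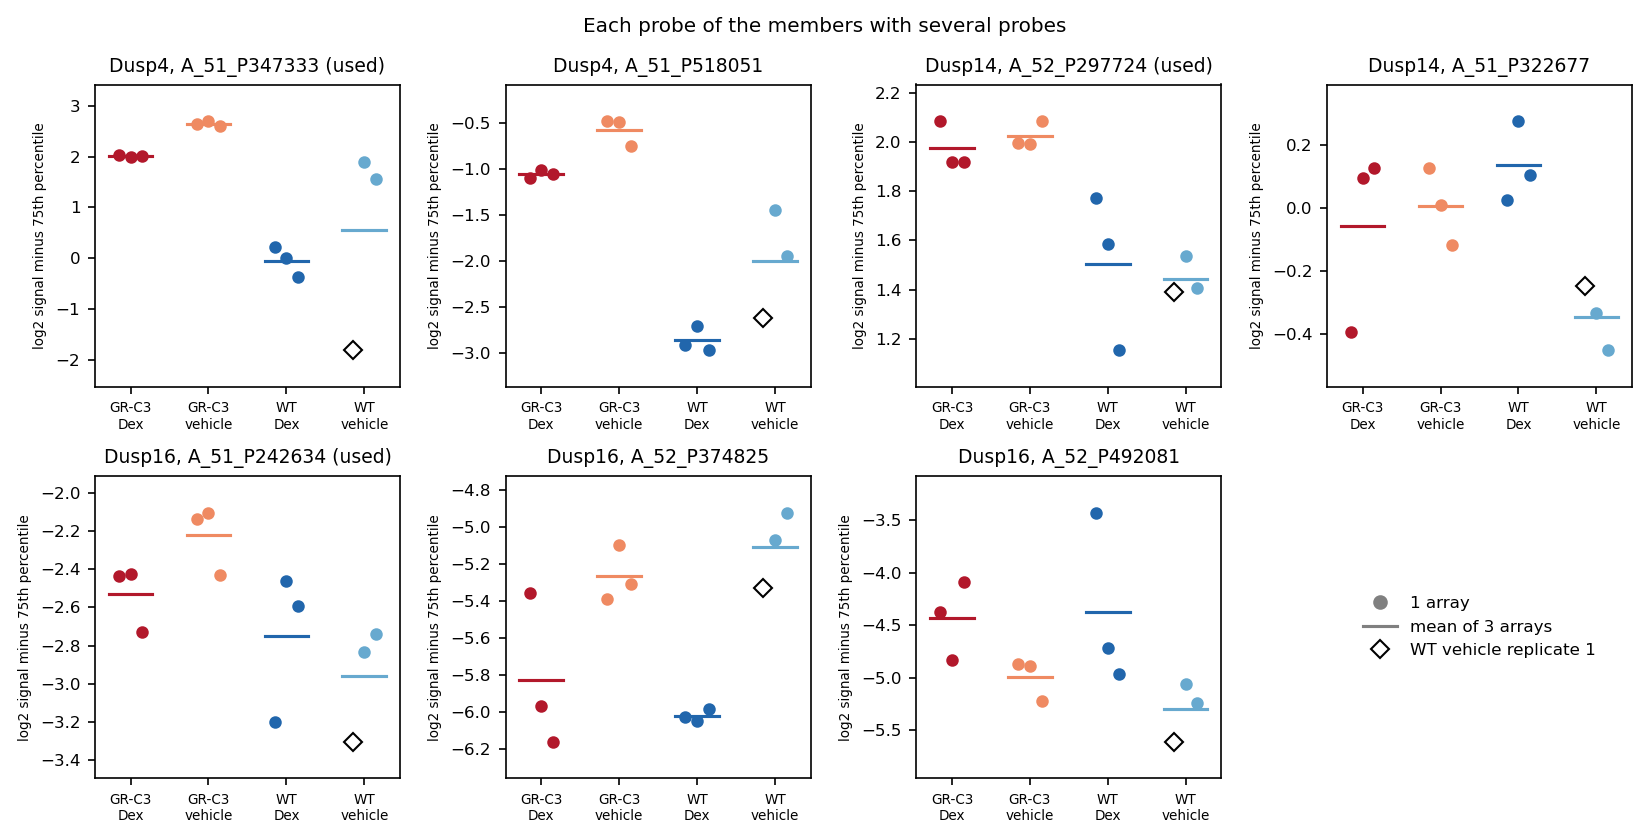
Level of every probe of Dusp4, Dusp14 and Dusp16 on each array (y axis, log2 signal minus the 75th percentile, its own range per panel), with groups from left to right GR-C3 Dex, GR-C3 vehicle, WT Dex and WT vehicle. Points are arrays, lines are means, and the open diamond is the array labelled WT vehicle replicate 1. Both Dusp4 probes place WT Dex lowest of the 4 groups once that array is set aside, while the probes of Dusp14 and of Dusp16 differ in pattern.

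The genes around the phosphatases were read in 6 lists. Among ERK-responsive transcripts, which rise when ERK is active, 11 of 15 were called between genotypes under Dex with 12 arrays, 9 higher and 2 lower in GR-C3 cells, against 29.6% of all genes. Their median difference was 0.44, against 0.13 over all genes. Fosl1, an AP-1 subunit, was 2.52-fold higher (adjusted p = 0.00114) and Etv4, an ETS factor, 2.11-fold higher (adjusted p = 0.000294). Ccnd1, the gene of cyclin D1, was lower at 0.617-fold (adjusted p = 0.000223). With 11 arrays 14 of 15 were called under Dex, 11 higher and 3 lower, against 40.7% of all genes. Under vehicle 10 of 15 were called with 12 arrays (24.8% of all genes) and with 11 (27.3%), each time 8 higher and 2 lower. Egr2, a zinc finger factor, was 2.95-fold higher there (adjusted p = 9.56e-05).

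After Dex in WT cells most called genes of this list were lower. With 11 arrays 7 of 15 were called, 6 lower and 1 higher, against 12.2% of all genes, and with 12 arrays 0 were called. Phlda1 fell to 0.394-fold (adjusted p = 6.57e-05) and Fosl1 to 0.584-fold (adjusted p = 0.000755), while Fos, the AP-1 subunit, rose 3.37-fold (adjusted p = 0.000472). In GR-C3 cells 3 of 15 were called with 11 arrays, all lower, against 3.47% of all genes, with Phlda1 at 0.563-fold (adjusted p = 0.00226), Etv1 at 0.681-fold (adjusted p = 0.00677) and Egr3 at 0.55-fold (adjusted p = 0.0224). Fos was the 1 list member with a called interaction with 11 arrays, -1.57 ± 0.28 (adjusted p = 0.0289). With 12 arrays 0 were called after Dex in GR-C3 cells or by the interaction.

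Of 8 transcripts that respond to stress kinases, 3 were called under Dex between genotypes with 12 arrays (37.5% of the list, against 29.6% of all genes), and all were higher in GR-C3 cells. Jun, the substrate of JNK, was 2.06-fold higher (adjusted p = 0.00216), Atf3 1.69-fold higher (adjusted p = 0.00248) and Ddit3 1.30-fold higher (adjusted p = 0.0472). Under vehicle 2 of 8 were called (25% of the list, against 24.8% of all genes), Jun at 2.05-fold (adjusted p = 0.00244) and Atf3 at 1.37-fold (adjusted p = 0.0368). With 11 arrays 7 of 8 were called under Dex, 5 higher and 2 lower, against 40.7% of all genes. Under vehicle 4 of 8 were called with 11 arrays, 3 higher and 1 lower, against 27.3% of all genes, and Atf3 was no longer among them (1.28-fold, adjusted p = 0.0846). After Dex in WT cells 7 of 8 were called with 11 arrays, 5 lower and 2 higher, against 12.2% of all genes. Zfp36, whose protein destabilises cytokine mRNAs, rose 2.64-fold (adjusted p = 9.11e-05), Gadd45a fell to 0.371-fold (adjusted p = 0.000182), and Gadd45g rose 1.75-fold (adjusted p = 0.00282). In GR-C3 cells 2 of 8 were called with 11 arrays, against 3.47% of all genes, Ptgs2 at 0.508-fold (adjusted p = 0.0215) and Zfp36 at 1.49-fold (adjusted p = 0.0242). The interaction of Gadd45a was called with 11 arrays, 1.05 ± 0.20 (adjusted p = 0.0366). With 12 arrays 0 of 8 were called after Dex in either genotype or by the interaction.

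Sprouty, Spred and related proteins inhibit growth factor receptors and Ras, upstream of ERK. Under Dex 3 of 8 such feedback inhibitors were called between genotypes with 12 arrays (37.5% of the list, against 29.6% of all genes), all higher in GR-C3 cells: Spry1, a Sprouty inhibitor, at 3.78-fold (adjusted p = 0.000639), Spred3 at 1.75-fold (adjusted p = 0.0283) and Rasa1 at 1.40-fold (adjusted p = 0.0368). Under vehicle Spry1 (3.32-fold, adjusted p = 0.0013), Spred3 (1.78-fold, adjusted p = 0.0279) and Spry4 (1.64-fold, adjusted p = 0.0288) were called, against 24.8% of all genes. With 11 arrays 4 of 8 were called under Dex, 3 higher and 1 lower, and 4 of 8 under vehicle, all higher (40.7% and 27.3% of all genes). The gene added was Errfi1, which codes for an inhibitor of the EGF receptor, lower in GR-C3 cells under Dex (0.664-fold, adjusted p = 0.000614) and higher under vehicle (2.25-fold, adjusted p = 2.55e-05). After Dex in WT cells 4 of 8 were called with 11 arrays, against 12.2% of all genes. Errfi1 rose 6.20-fold (adjusted p = 2.47e-07), while Spry1 fell to 0.466-fold (adjusted p = 0.0023) and Spred3 to 0.604-fold (adjusted p = 0.00325). In GR-C3 cells 1 of 8 was called with 11 arrays, against 3.47% of all genes, Errfi1 at 1.83-fold (adjusted p = 0.000541), and its interaction was -1.76 ± 0.13 (adjusted p = 0.000451). With 12 arrays 0 of 8 were called after Dex in either genotype or by the interaction.

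The kinases of the cascades are the targets of the phosphatases and the enzymes upstream of them. In the ERK cascade 6 of 15 were called under Dex between genotypes (40% of the list, against 29.6% of all genes), 4 higher and 2 lower in GR-C3 cells. Under vehicle 2 of 15 were called, a share of 13.3% and below the 24.8% of all genes, and 5 of 15 with 11 arrays (33.3%, against 27.3% of all genes). Nras was 1.47-fold higher (adjusted p = 0.00221) and Braf lower at 0.684-fold (adjusted p = 0.00775) under Dex. In the JNK and p38 cascades 4 of 18 were called under Dex (22.2%, against 29.6% of all genes) and 3 of 18 under vehicle (16.7%, against 24.8%). With 11 arrays 7 of 18 (38.9%, against 40.7% of all genes) and 5 of 18 (27.8%, against 27.3%) were called, so that these shares were near or below those of all genes. Map3k5, a stress-activated kinase upstream of JNK and p38, was lower at 0.341-fold (adjusted p = 0.00152) and Map2k6, a kinase of p38, higher at 1.91-fold (adjusted p = 0.00516) under Dex. After Dex with 11 arrays Map2k6 fell in WT cells to 0.597-fold (adjusted p = 0.00268) and in GR-C3 cells to 0.576-fold (adjusted p = 0.003).

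Of 17 other dual-specificity phosphatases, 14 passed the filter. Under Dex 2 were called with 12 arrays, both higher in GR-C3 cells, which is 14.3% of the list and below the 29.6% of all genes. With 11 arrays 5 were called, 4 higher and 1 lower (35.7%, against 40.7% of all genes). Dusp7, a cytoplasmic phosphatase of ERK and the closest in kind to Dusp6, was 1.69-fold higher (adjusted p = 0.0033) and Dusp12 1.62-fold higher (adjusted p = 0.0144). Under vehicle 4 of 14 were called, all higher (28.6%, against 24.8% of all genes), Dusp7 at 1.69-fold (adjusted p = 0.00379), Dusp12 at 1.52-fold (adjusted p = 0.0295) and Dusp22 at 1.32-fold (adjusted p = 0.0329) among them. With 11 arrays 4 of 14 were again called under vehicle, a share of 28.6% and near the 27.3% of all genes. These were Dusp3, Dusp7, Dusp11 and Dusp12, and Dusp22 was not called (1.25-fold, adjusted p = 0.0694). After Dex 0 of 14 were called in either genotype with 12 or 11 arrays.

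**Figure D5:**
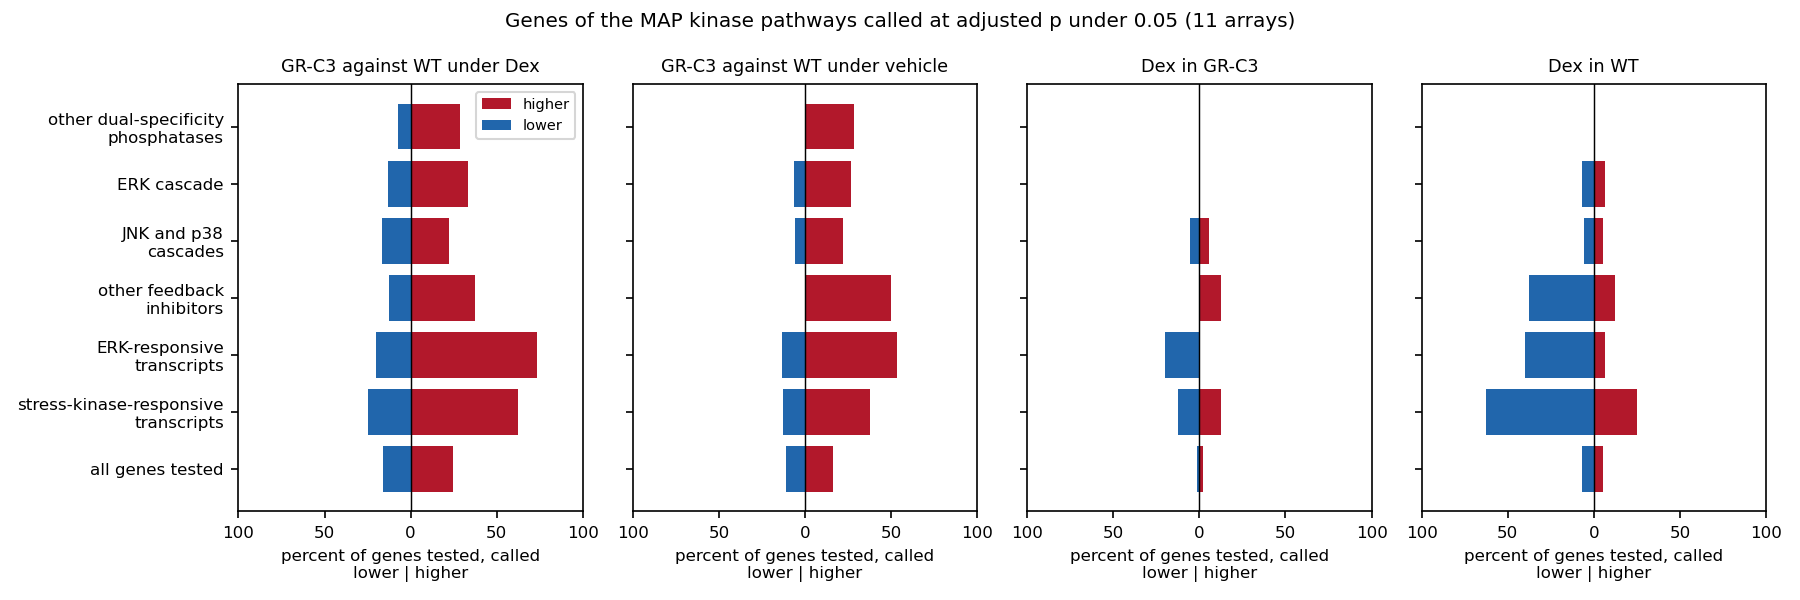
Share of the tested genes of each list called higher (red, right of 0) or lower (blue, left of 0) at an adjusted p under 0.05 with 11 arrays, in 4 comparisons, with all 20836 genes in the bottom row. ERK-responsive transcripts, stress-kinase-responsive transcripts and the other feedback inhibitors each have a larger share called than all genes in all 4 comparisons. After Dex in GR-C3 cells the shares are 20%, 25% and 12.5%, against 3.47% of all genes. The lists are short, with 8 to 18 genes tested each.

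Over the 12 arrays the members moved with and against each other, which is a description of arrays that share genotype, treatment and slide. Dusp1 correlated at -0.96 with Dusp10 and at -0.92 with Dusp4, and Dusp4 at 0.93 with Dusp10. Dusp6 correlated at 0.90 with Dusp14 and at 0.88 with Dusp2. The genes with the pattern most like that of Dusp1 (Pearson correlation over 12 arrays) were Nampt (0.991) and Rgs2 (0.989). For Dusp10 they were Adgrg1 (0.995) and Otud7a (0.995), and for Dusp4 they were Mtrf1l (0.987) and Zfpm2 (0.986). Pdap1 (0.985) and Tubb6 (0.978) were nearest to Dusp6, and Dctpp1 (0.986) and Ak6 (0.981) to Dusp2. For Dusp14 they were Mrtfb (0.968) and Sox2 (0.966), and for Dusp16 Snrpb (0.960) and Atl1 (0.931).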

How the data were processed

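RNA of 12 MEF samples in 4 groups of 3 was measured on Agilent arrays. The deposited scanner files hold spot intensity on a linear scale, made per the file headers with Feature Extraction 9.5.3.1 (9.5 in the submitters' processing notes). The processed signal is the authors' background-subtracted intensity. Its log2 value, computed here from the deposited intensity, minus the array's 75th percentile was the level. Spots of 1 probe were averaged, control and outlier spots left out, saturated spots kept. A probe stayed in if every array of 1 or more groups called it well above background, and the brightest probe on average stood for a gene. Names came from accessions (19953 probes), symbols (4584) or synonyms (2140) in a RefSeq table, and 4258 kept the file's name. Probe positions are those of the files (mm7); exons of that build were not annotated. Promoters are RefSeq's (GRCm38.p6), matched for 7 of 8 members.

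The test was that of limma 3.58.1 (R 4.3.3), by lmFit on group coefficients and eBayes, for 5 comparisons, with Benjamini-Hochberg adjustment over 20836 genes. A gene was called at an adjusted p under 0.05. Errors written ± are SE. The fit was tested on simulated data. The members, lists and tests were chosen with earlier results of these data known. Named besides the members were up to 3 called genes with the smallest p per list and comparison, and the 2 genes correlating best with each member. Some of the genes that this rule takes are not printed. Alternatives were normexp background correction, quantile normalization, no filter, each probe alone, slide block, array weights, replicate block, fits of the 2 groups alone, and leaving out arrays. Normexp with repaired local backgrounds, and all settings combined with 11 arrays, were chosen after seeing the data.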

Additional observations from a re-analysis of the deposited data

Results flagged for a closer look

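The Dex change of Dusp4 in GR-C3 cells minus that in WT cells was 1.14 ± 0.22 (SE, limma, adjusted p = 0.0418) with 11 arrays, which drew attention because the test of the difference between genotypes passed. With all 12 arrays at equal weight it was -0.04 ± 1.03 (adjusted p = 0.996), and with array weights, which gave WT vehicle replicate 1 the lowest weight of the 12 arrays, it was 1.16 ± 0.41 (adjusted p = 0.116). The second Dusp4 probe gave 0.69 ± 0.21 (adjusted p = 0.179) with 11 arrays.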

How the results depend on the processing

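Members called out of 7 are given for Dex in WT cells, Dex in GR-C3 cells, the interaction, genotype under Dex and genotype under vehicle, in this order. With 12 arrays the counts were 0, 0, 0, 5 and 6 by limma, with 2, 1, 0, 6 and 7 at an unadjusted p under 0.05. Of all genes, 16.7, 11.8, 6.15, 43.1 and 37% had an unadjusted p under 0.05. With slide as a block they were 3, 0, 0, 3 and 2, and with array weights 3, 2, 2, 6 and 7. Over all 20836 genes, array weights called 4234, 5043, 1022, 9131 and 10251. Fits of the 2 groups alone called 0, 2, 5 and 4, without an interaction, against 0, 692, 6884 and 3867 of all genes. Normexp on the deposited backgrounds called 0 in each, where 1, 0, 0, 2 and 4 had an unadjusted p under 0.05. Over all genes it called 0, 0, 0, 455 and 377, so few genes of any kind passed. The median of all genes was then 0.55, 0.10, -0.46, -0.40 and 0.29, and some local backgrounds reached 65361. With these repaired, the counts were 0, 0, 0, 5 and 7, against 37, 14, 0, 4508 and 4395 of all genes. Arrays with the same replicate number correlated at -0.22 to 0.21 (4 of 18 pairs over 0.1). Those with different numbers correlated at -0.29 to 0.29 (5 of 36), which shows no clear pairing but cannot exclude it with 3 arrays per group. The replicate block gave 0, 0, 0, 5 and 6, against 0, 10, 1, 5879 and 5048 of all genes. The other settings with 12 arrays kept counts within 1 of those given. With 11 arrays the counts were 3, 1, 1, 6 and 6, the same with quantile normalization, 3, 1, 2, 5 and 6 with repaired normexp, 3, 1, 2, 6 and 6 with the replicate block, and 4, 0, 1, 6 and 6 for probes fitted alone, where a member counts if any of its probes is called. Of all genes, 11 arrays called 2548, 722, 237, 8483 and 5687, and 2984, 982, 369, 8571 and 5959 with quantile normalization. Repaired normexp called 1917, 387, 231, 6400 and 4824 genes, and the replicate block 3074, 646, 276, 8818 and 6725. Probes fitted alone called 3497, 905, 273, 11943 and 8282 of 30935 probes. Dusp16 counts there for Dex in WT cells through its variant probe, and by the used probes alone that count is 3. Leaving out 1 or 2 arrays gave ranges of 0 to 3, 0 to 2, 0 to 3, 4 to 6 and 2 to 7. The settings that combine a change with 11 arrays, and the repaired backgrounds, were chosen after seeing the data.

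Directions of members turned as follows, and the cause was not tested. Under normexp, Dex in WT cells gave Dusp6 -0.50, Dusp14 -0.24 and Dusp2 0.32, the interaction gave Dusp6 0.35, Dusp1 0.12, Dusp14 0.0051 and Dusp10 -0.37, and genotype under Dex gave Dusp16 -0.56. With slide as a block, Dex in WT cells gave Dusp16 -0.41, Dex in GR-C3 cells gave Dusp6 0.0035, the interaction gave Dusp4 0.91 and Dusp16 0.32, and genotype under vehicle gave Dusp16 -0.0049. With array weights, Dex in WT cells gave Dusp6 -0.029 and Dusp14 -0.087, and the interaction gave Dusp14 0.015 and Dusp4 1.16. Repaired normexp gave Dusp6 -0.00092 after Dex in WT cells. The interaction of Dusp4, -0.04 with 12 arrays, was 0.014 with quantile normalization. With 11 arrays it was 1.14, also for probes fitted alone, 1.20 with quantile normalization, 1.05 with repaired normexp and 1.18 with the replicate block, which gave Dusp14 -0.026 after Dex in WT cells. Over fits without 1 or 2 arrays, Dex in WT cells ranged from -0.10 to 0.21 for Dusp6, -0.10 to 0.23 for Dusp14, -1.93 to 0.075 for Dusp4 and -0.11 to 0.43 for Dusp16, and the interaction from -0.28 to 0.054 for Dusp14 and -0.71 to 1.30 for Dusp4. Without a single array, Dusp1 under vehicle lost its call for each GR-C3 vehicle array (adjusted p = 0.0637 to 0.0981) and Dusp10 for replicates 1 and 2 (adjusted p = 0.0501 and 0.0651), while Dusp4 under Dex was called without WT vehicle replicate 2 (adjusted p = 0.0361) or 3 (adjusted p = 0.0498).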
